A study of Mus musculus with 12 samples.

Results

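Spp1 encodes osteopontin, a secreted phosphorylated glycoprotein, and it is described here in natural killer (NK) cells of mice that carry a fluorescent reporter for interferon gamma. It was chosen from the measured values themselves, because it was among the features with the most reads and its level was higher in each successive group of samples, and it is 1 of the 55487 features in the table. Its own group differences are therefore given as a description, with no test.

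RNA-seq libraries were made from 12 samples of NK cells, 4 in each of 3 groups. All 3 groups were mut/mut mice of the B6.129S4-Ifngtm3.1Lky/J reporter strain, and their titles carry the term HD IL-15, where IL-15 is a cytokine that NK cells depend on. One group is labelled unstimulated, and the YFP- and YFP+ samples received anti-NK1.1, an antibody against an activating receptor of NK cells, for 6 h and are labelled negative or positive for the yellow fluorescent reporter. Each group has 1 sample labelled f2, m2, m3 and m4. Nothing in the labels says which samples share a mouse, so p-values measure the spread between these samples. No age is given in the sources used here. The reporter strain serves as a model of interferon gamma expression, so the separation itself selected on the Ifng locus and not on Spp1.

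Osteopontin binds integrins through an arginine-glycine-aspartate motif, and it also binds CD44. It was first studied in the mineral matrix of bone, and activated lymphocytes and macrophages make it as a cytokine that acts on migration, adhesion and survival. The gene lies in a cluster with other genes of the small integrin-binding N-linked glycoprotein (SIBLING) family, which mostly serve bone and teeth, and its product is phosphorylated by the Golgi kinase FAM20C and cut by thrombin and matrix metalloproteinases.

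Spp1 (ENSMUSG00000029304) lies on the plus strand of chromosome 5 at 104435118 to 104441050 in GRCm38, by a match of its identifier to GENCODE M21. It has 7 annotated transcripts, all protein coding, and the union of its exons spans 1648 bp. The annotated gene Gm42793, of the biotype TEC, overlaps the 5′ part of Spp1 on the same strand at 104435121 to 104436372 and held at most 42 reads in any library, against 28567 or more for Spp1. Reads that fall on both genes cannot be assigned by the counts alone.

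The 250 bases before the first start that RefSeq lists for Spp1 (GRCm38.p6, chr5:104434861-104435110, plus strand) are shown because factors reported to act on this gene are described further on. Capitals mark, from left to right, a TATA box match (TATAAA), a Runx match (ACCACA), an Ets match (GGAAGT) and a CCAAT box match, which is on the reverse strand and reads ATTGG here.
Spp1 promoter: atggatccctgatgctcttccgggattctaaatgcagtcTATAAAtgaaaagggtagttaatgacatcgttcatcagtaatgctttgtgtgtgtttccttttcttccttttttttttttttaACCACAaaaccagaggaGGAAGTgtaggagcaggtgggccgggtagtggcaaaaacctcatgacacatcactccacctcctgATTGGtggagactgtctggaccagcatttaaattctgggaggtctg

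These matches begin 211, 128, 111 and 46 bases before the start. Among 32851 RefSeq promoter windows of 250 bases, searched on both strands, 12.4% held TATAAA, 14.0% ACCACA, 19.7% GGAAGT and 33.8% CCAAT. The window held no match to the AP-1 letters TGANTCA (6.75% of windows did), to the Sp1 letters GGGCGG (32.7%) or to the T-box letters GTGTGA (12.3%). The 4 marked matches did not overlap each other. A match is a description of the letters, and a missing match says only that those letters are not in this window.

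Library totals ran from 32.1 to 54.2 M reads (M, mega), so that 3 reads corresponded to 0.0553 to 0.0933 CPM, the count of reads relative to the library total. Such floors cover counting error only. Between 13.7% and 35.3% of the reads of a library fell on 359 rRNA-like features (genes with an rRNA biotype, with Lars2, Mir6236 and Gm23935). This share was highest within its group in unstimulated m4 (35.3%), YFP- m3 (30.3%) and YFP+ m3 (29.8%). The 10 NK cell markers were present in every library and summed to 18681 to 22541 CPM without stimulation, 21289 to 25248 CPM in YFP- cells and 31215 to 42427 CPM in YFP+ cells. Gzmb, 1 of the 10, alone stood at 6165, 12849 and 24088 CPM in the 3 groups. The markers did not move together: Klrk1 stood at 188, 282 and 238 CPM and Tbx21 at 33.2, 80.9 and 85.7 CPM. Ncr1 stood at 247, 222 and 123 CPM, Klrd1 at 385, 270 and 165 CPM and Eomes at 108, 70.5 and 40.7 CPM. Klrb1c, the gene for NK1.1, stood at 308, 75.3 and 6.50 CPM.

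Spp1 was already an abundant transcript in unstimulated cells and was higher in both stimulated groups, highest in YFP+. In unstimulated samples it stood at 1625 CPM in f2, 1764 in m2, 1520 in m3 and 881 in m4. In YFP- samples it stood at 5493 CPM in f2, 7458 in m2, 4586 in m3 and 4314 in m4. In YFP+ samples it stood at 14910 CPM in f2, 14263 in m2, 8508 in m3 and 9845 in m4. The 3 groups did not overlap: the highest unstimulated sample lay below the lowest YFP- sample, and the highest YFP- sample (7458 CPM) lay below the lowest YFP+ sample (8508 CPM). Sample m4 was the lowest of its group in unstimulated and YFP- cells, and m3 was the lowest in YFP+ cells. The plot of Spp1 by sample shows the same order of the groups for each of the 4 labels.

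**Figure D1:**
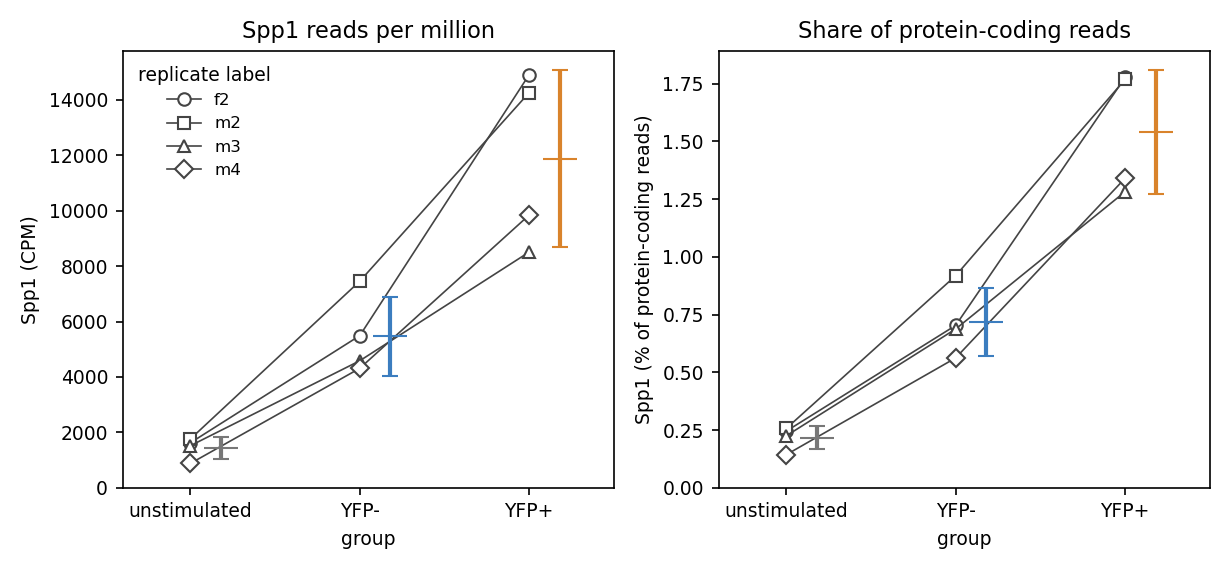
Spp1 in each sample, as CPM (left) and as a percent of the reads on protein-coding genes (right), against the group. Symbols joined by a thin line share a replicate label, and the coloured bars give the mean ± SD of the 4 samples of a group. All 4 lines go up at both steps, and in CPM the YFP+ samples run from 8508 to 14910 while the YFP- samples end at 7458.

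Mean Spp1 was 1448 ± 391 CPM (SD, n = 4) without stimulation, 5463 ± 1423 CPM in YFP- cells and 11882 ± 3182 CPM in YFP+ cells. Mean Spp1 in YFP- samples was 3.77-fold that in unstimulated samples, and the log2 difference of 1.93 ranged from 1.59 to 2.29 over the 4 labels. Mean Spp1 in YFP+ samples was 2.18-fold that in YFP- samples, and the log2 difference of 1.11 ranged from 0.89 to 1.44 over the labels. YFP+ samples stood 8.21-fold above unstimulated samples, with label differences of 2.48 to 3.48. These comparisons share samples, so their values are not independent of each other. Of the CPM gained between unstimulated and YFP+ samples, 38.5% was present in YFP- samples. Within a group the samples spread about as widely, relative to the mean, in all 3 groups: the coefficient of variation was 27.0%, 26.0% and 26.8%. In bulk samples, fewer cells that express a gene and less RNA per cell cannot be told apart.

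The size of the step from YFP- to YFP+ depended on the scaling of the libraries. Under quantile normalization, which gives a gene the value of its rank, the log2 difference was 0.58, and with each sample centred on its median it was 1.38. Spp1 was higher in YFP+ than in YFP- samples for all 4 labels as deposited. The samples with the largest rRNA-like shares also had low Spp1: deviations from the group mean of Spp1 (log2 CPM) and of the rRNA-like percent had a Pearson r of -0.80 over the 12 samples. Of the reads outside the rRNA-like features, Spp1 made up 0.136% to 0.243% without stimulation, 0.539% to 0.887% in YFP- cells and 1.21% to 1.73% in YFP+ cells. Unstimulated m4, YFP- m4 and YFP+ m3 remained the lowest of their groups on that scale, and the groups still did not overlap.

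As a share of each library, Spp1 took 0.0881% to 0.176% of all reads before stimulation, 0.431% to 0.746% in YFP- cells and 0.851% to 1.49% in YFP+ cells. Of the reads on protein-coding genes alone, it took 0.144% to 0.257%, 0.563% to 0.919% and 1.28% to 1.78% in the same order of groups. In YFP+ m2, 773657 reads of the library came from this 1 gene. Counting error is therefore negligible beside the spread between samples for every level of Spp1 given here.

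By mean reads, Spp1 ranked 69 among all 55487 features before stimulation, 12 in YFP- cells and 8 in YFP+ cells. Among 21935 protein-coding genes its ranks were 62, 8 and 4. By sample, its rank among all features was 59, 58, 65 and 113 in unstimulated f2, m2, m3 and m4. It was 11, 9, 13 and 15 in the YFP- samples and 7, 7, 10 and 10 in the YFP+ samples, so no YFP- sample ranked Spp1 above 9 and no YFP+ sample ranked it below 10.

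The neighbours of Spp1 in this order changed with the groups. In unstimulated samples, it stood just below the ribosomal protein gene Rps7 (1452 CPM) and just above Rack1 (1430 CPM), a ribosome-associated scaffold gene. In YFP- samples, it stood below Rpl13 (5730 CPM) and above Rpl3 (5128 CPM), both genes of ribosomal proteins. In YFP+ samples, the features next above were Gzmb (24088 CPM), which encodes the cytotoxic protease granzyme B, Actb (21077 CPM) and the rRNA-like Gm23935 (13989 CPM). The next below were the chemokine genes Ccl3 (11371 CPM) and Ccl1 (10837 CPM) and the translation factor gene Eef1a1 (6696 CPM). Longer transcripts collect more reads, so these are orders of reads and not of molecules.

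**Figure D2:**
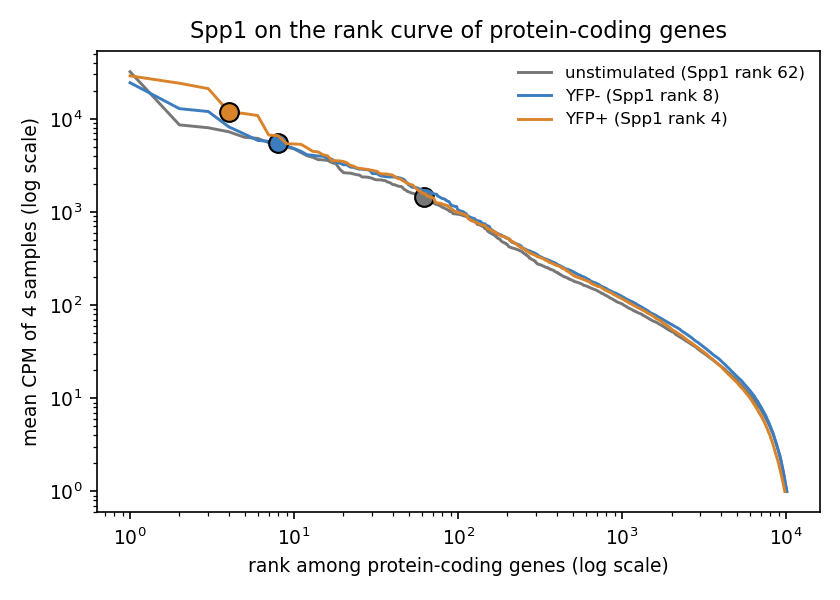
Mean CPM of the 4 samples of a group against rank among protein-coding genes, both on log scales and shown down to 1 CPM, with 1 line per group and Spp1 as a filled circle. Spp1 moves from rank 62 in unstimulated to 8 in YFP- and 4 in YFP+ samples. The curves differ near the top: rank 2 stood at 8603, 12849 and 24088 CPM in the 3 groups. Rank 4 stood at 7254, 8201 and 11882 CPM.

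Per kilobase of exon, Spp1 stood at 878 ± 237 CPM per kb (SD, n = 4) before stimulation, 3315 ± 863 in YFP- cells and 7210 ± 1931 in YFP+ cells. Its rank by that scale among 21893 protein-coding genes with a length was 51, 9 and 6. By sample the per-length rank ran from 41 to 85 before stimulation, from 6 to 16 in YFP- cells and from 6 to 7 in YFP+ cells.

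Some genes had larger differences between groups than Spp1, among genes of high abundance as well as among all genes tested. Spp1 was chosen for its rise, so its place in these orders is a description. Of the 12364 genes tested (log2 CPM over 0 in 4 or more samples), 4.36% had a larger log2 difference between YFP- and unstimulated samples, 0.793% between YFP+ and YFP-, and 1.88% between YFP+ and unstimulated. Among the 108 of these genes with a mean of at least 1000 CPM, 3 had a larger difference than Spp1 between YFP- and YFP+: Ccl3, Xcl1 and Ccl4. All 3 encode chemokines. Between unstimulated and YFP- samples 7 of the 108 had a larger difference, namely Ccl1, Crtam, Ccl3, Xcl1, Ccl4, Hspa5 and Srgn. Between unstimulated and YFP+ samples 5 of the 108 did: Ccl1, Ccl3, Xcl1, Crtam and Ccl4. These are counts over 108 genes, while the percents above are over all 12364.

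Spp1 was next set against 41 genes for other secreted products of lymphocytes (chemokines, cytokines, granule contents and 4 others), of which 34 were tested. This list, like the other gene lists here, was drawn up with earlier results of these data known. Its counts and medians are therefore a description. In a limma fit over all 12364 genes with Benjamini-Hochberg adjustment, 29 of these 34 changed between unstimulated and YFP- samples, 23 higher and 6 lower, where 51.1% of all genes tested passed an adjusted p of 0.05 (30.2% higher and 20.9% lower). Of the 34, 5 (Csf1, Csf2, Cxcl10, Lif and Penk) had no unstimulated sample over the expression filter and were tested only because they were higher in stimulated samples. Among the other 29 genes, 24 were called, 18 higher and 6 lower. The median log2 difference of the 34 was 1.13, beside 0.14 over all genes tested. Between YFP- and YFP+ samples 17 of the 34 changed, 11 higher and 6 lower, where 21.8% of all genes passed (3.28% higher and 18.5% lower). The median of the 34 was 0.43 beside -0.19 over all genes. Without f2 or m2 the count called among the 34 was 11 or 10. Among the 29 genes over the filter in an unstimulated sample, 16 were called, 11 higher and 5 lower. The split of all calls in that comparison depended on scaling: as deposited 405 rose and 2286 fell, against 1015 and 1675 with trimmed-mean scaling, 1163 and 1430 under quantile normalization, and 1505 and 1491 with median centring. Between unstimulated and YFP+ samples 28 of the 34 changed, 21 higher and 7 lower, where 60.8% of all genes passed (27.5% higher and 33.3% lower). Without the 5 genes that had no unstimulated sample over the filter, 25 of 29 were called, 18 higher and 7 lower.

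Among the reads on Spp1 and these 41 genes together, Spp1 held 5.42%, 5.95%, 5.52% and 3.47% in unstimulated f2, m2, m3 and m4. It held 8.18%, 11.2%, 8.00% and 6.10% in the YFP- samples and 11.7%, 12.0%, 7.44% and 7.95% in the YFP+ samples. All YFP- and YFP+ samples lay above all unstimulated samples, while YFP- and YFP+ samples overlapped. The 42 genes as a whole took 2.54% to 2.997% of all reads before stimulation, 5.73% to 7.07% in YFP- cells and 11.4% to 12.7% in YFP+ cells. Between YFP- and YFP+ samples the share of Spp1 among these genes differed by less than the spread between samples: 8.36% ± 2.09 (SD, n = 4) and 9.78% ± 2.42. Counted per kilobase of exon, that share was 3.62% before stimulation, 5.51% in YFP- cells and 5.98% in YFP+ cells.

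Chemokines recruit other leukocytes, and 4 of their genes stood close to Spp1 or above it in the stimulated groups. The 10 secreted products named here were picked for their YFP+ level per kilobase, so their differences between groups are a description, with no test. Ccl4 stood at 606 CPM per kb in unstimulated samples, below Spp1 in 3 of 4 of them. It stood at 18134 CPM per kb in YFP- and 43805 in YFP+ samples, above Spp1 in all 8. Ccl3, a chemokine of the same cluster, stood at 99.7, 4921 and 14845 CPM per kb in the 3 groups, and it was below Spp1 in all 4 unstimulated samples and above it in all 8 stimulated samples. Xcl1, which attracts cross-presenting dendritic cells, stood at 94.0, 4541 and 12598 CPM per kb, and Spp1 exceeded it in 4 of 4 unstimulated, 1 of 4 YFP- and 0 of 4 YFP+ samples. Ccl1 stood at 13.6, 2887 and 4574 CPM per kb, below Spp1 in 4 of 4 unstimulated, 3 of 4 YFP- and 4 of 4 YFP+ samples.

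Between YFP- and YFP+ samples the log2 CPM difference was 1.61 for Ccl3, 1.48 for Xcl1, 1.29 for Ccl4 and 0.68 for Ccl1, and that of Spp1, 1.11, lay between those of Ccl1 and Ccl4. Under quantile normalization the difference of Ccl1 was 0.12. Between unstimulated and YFP- samples the differences of these 4 genes, 4.90 (Ccl4) to 7.76 (Ccl1), were all above the 1.93 of Spp1.

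Ccl5 was the one chemokine gene among the 10 with a flatter course than Spp1. It stood at 1451, 2470 and 2102 CPM per kb in the 3 groups, above Spp1 in 4 of 4 unstimulated samples and below it in 4 of 4 YFP+ samples. Its log2 CPM difference was 0.79 between unstimulated and YFP- samples and -0.21 between YFP- and YFP+ samples, and its samples overlapped between all 3 groups.

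Granule contents, the proteins that NK cells release to kill targets, gave a different order. Gzmb stood above Spp1 per kilobase in all 12 samples, at 4294, 8948 and 16774 CPM per kb in the 3 groups. Its log2 CPM differences at the 2 steps were 1.06 and 0.90. Gzma, the gene for granzyme A, stood at 8552, 4456 and 4386 CPM per kb in the 3 groups. It was above Spp1 in all 8 unstimulated and YFP- samples and below it in all 4 YFP+ samples. Gzmc, another granzyme gene, stood above Spp1 in 4 unstimulated and 3 YFP- samples and below it in 3 of 4 YFP+ samples, where the means were 5460 and 7210 CPM per kb.

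Prf1, which encodes the pore-forming protein perforin, had log2 CPM differences of 0.43 and 0.14 at the 2 steps. Perforin mRNA was above Spp1 per kilobase in all 4 unstimulated samples and below it in all 8 stimulated samples. Lgals3, the gene for the lectin galectin-3, stood at 643, 1390 and 2890 CPM per kb, below Spp1 in 3 of 4 unstimulated samples and in all 8 stimulated samples. Its log2 CPM differences of 1.11 and 1.05 at the 2 steps stand beside 1.93 and 1.11 for Spp1.

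**Figure D3:**
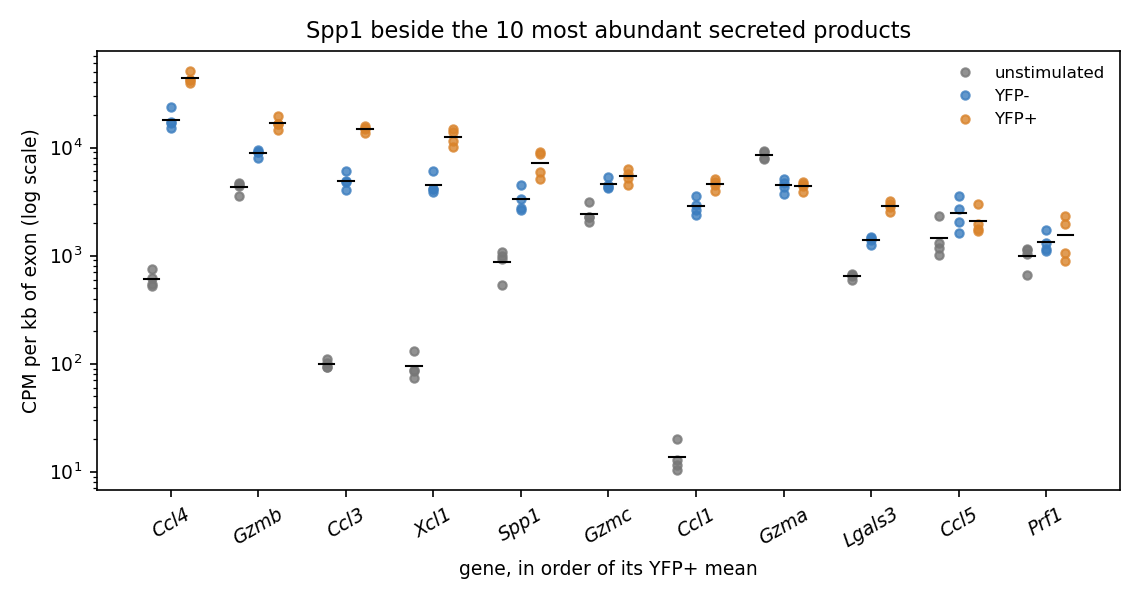
CPM per kb of exon (log scale) of Spp1 and the 10 secreted-product genes with the highest YFP+ means, 1 point per sample, grey for unstimulated, blue for YFP- and orange for YFP+, with a bar at each group mean. Spp1 is the fifth gene by its YFP+ mean of 7210 CPM per kb. Ccl3, Ccl4 and Xcl1 lie below the Spp1 mean of 878 CPM per kb in unstimulated cells and above its mean in both stimulated groups.

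In order of level per kilobase among the 42 genes, Spp1 was number 7 in unstimulated f2, m2 and m3 and number 10 in m4. It was number 7, 5, 7 and 9 in the YFP- samples and number 5, 5, 6 and 5 in the YFP+ samples. Ifng, the gene behind the reporter, stood at 3.92, 45.8 and 329 CPM in the 3 groups. The ratio of Spp1 to Ifng per kilobase was lower in each successive group, with sample values of 165 to 366 before stimulation, 71.8 to 108 in YFP- cells and 22.0 to 34.3 in YFP+ cells and no overlap. The separation by the Ifng reporter fixed part of that order.

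Samples of 1 group that had more Spp1 also had more Prf1 and less Xcl1. Over the 12 samples, deviations from the group mean in log2 CPM had the same sign for Spp1 and Prf1 in 12 of 12 samples, with a Pearson r of 0.94, and 0.96 without the 2 samples farthest from the median. Deviations of Xcl1 had the opposite sign to those of Spp1 in 11 of 12 samples, with r of -0.84, and -0.73 without the 2 farthest. Of the secreted products averaging log2 CPM 2 or more, Prf1 had the highest r and Xcl1 the lowest, so both are extremes of that list. Il16 (0.83), Gzme, Osm and Gzmd (0.77 for each) also had high r, and Anxa8, outside the list, had 0.95. The share of all genes with r this large was not counted. In log2 CPM as deposited, r depended more on single samples for Gzmb, Ccl1, Ccl4 and Ccl3. Without the 2 farthest, r went from 0.77 to 0.61 for Gzmb and from -0.73 to -0.44 for Ccl1. It went from -0.57 to -0.21 for Ccl4 and from -0.46 to -0.79 for Ccl3. These samples share libraries and the rRNA-like share, and the r values are descriptions over 12 points of 3 groups. On totals without the rRNA-like features, r was 0.90 for Prf1, -0.92 for Xcl1, -0.90 for Ccl1, -0.87 for Ccl4, -0.86 for Ccl3 and 0.36 for Gzmb. On that scale Ccl1, Ccl4 and Ccl3 were close to Xcl1. Further secreted products had large values there too, such as Ccl5 (-0.84), Gzmd and Gzme (0.77 for both) and Il16 (0.73). The part of the rRNA-like share in these values was not tested beyond that.

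**Figure D4:**
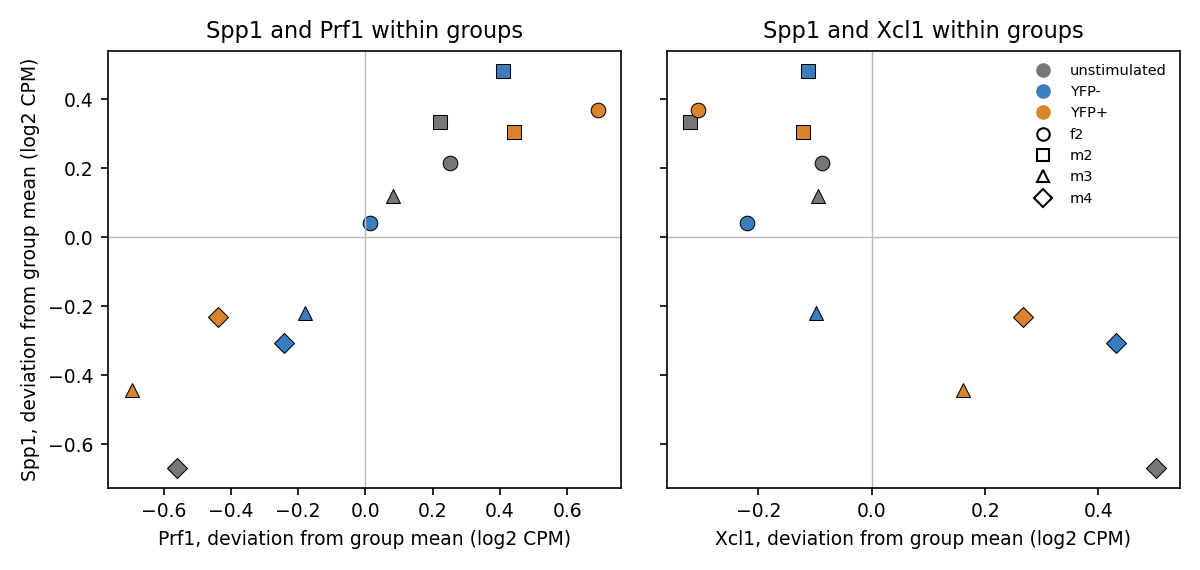
Deviation of each sample from its group mean in log2 CPM, Spp1 on the vertical axis against Prf1 (left) and Xcl1 (right) on the horizontal axis. Colours mark the group and symbols the replicate label. Points rise from lower left to upper right for Prf1 (r = 0.94) and fall for Xcl1 (r = -0.84).

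Receptors of osteopontin were measured as 10 genes, 6 of which were abundant enough to test, and they did not move as 1 set. Between unstimulated and YFP- samples 3 rose and 2 fell (3 called in all without m2), where 30.2% of all genes tested were higher and 20.9% lower. Between YFP- and YFP+ samples 2 rose and 2 fell, where 3.28% were higher and 18.5% lower. Between unstimulated and YFP+ samples 2 rose and 3 fell, where 27.5% were higher and 33.3% lower. The median log2 differences were 0.07, -0.27 and -0.25, beside 0.14, -0.19 and -0.03 over all genes tested.

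Cd44, a receptor for hyaluronan and osteopontin, stood at 37.4 ± 1.52 CPM (SD, n = 4) before stimulation, 167 ± 49.2 in YFP- cells and 136 ± 26.7 in YFP+ cells. It rose between unstimulated and YFP- samples (log2 2.12, SE 0.19, adjusted p = 1.4e-06), and between YFP- and YFP+ its difference was -0.27 (adjusted p = 0.33). Itgav, the integrin alpha V subunit, was the receptor gene whose groups followed the order of Spp1, at 16.7 to 18.8, 46.3 to 56.3 and 63.5 to 99.1 CPM. It rose by 0.76 in log2 between YFP- and YFP+ samples, after a larger rise at the first step (SE 0.15 for both, adjusted p = 0.0023 and 3.1e-06). Itgb3, the beta 3 subunit that pairs with alpha V, went the other way, at 57.5 to 62.5, 25.0 to 38.6 and 6.63 to 11.0 CPM. It fell by 0.83 and then by 1.93 (SE 0.17 for both, adjusted p = 0.0012 and 1e-05).

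Itgb1, the beta 1 subunit, stood at 150, 108 and 90.7 CPM in the 3 groups. Its fall of 0.76 between unstimulated and YFP+ samples passed the test (adjusted p = 0.0008). The call between unstimulated and YFP- samples (-0.48, adjusted p = 0.019) was lost without m2 (adjusted p = 0.089) or m4 (0.15). Itga4, the alpha 4 subunit, fell by 1.30 between YFP- and YFP+ samples (SE 0.14, adjusted p = 4e-05), from 29.1 to 11.8 CPM. Its rise before that (0.49, adjusted p = 0.0096) was lost without f2 (adjusted p = 0.076) or m2 (0.067). Itga5, the alpha 5 subunit, rose by 0.60 between YFP- and YFP+ samples (adjusted p = 0.013), a call lost without m2, m3 or m4 (adjusted p = 0.051, 0.068 and 0.13). Itgb5, Itgb6, Itga8 and Itga9 stayed near or below 1 CPM in every group and were not tested.

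**Figure D5:**
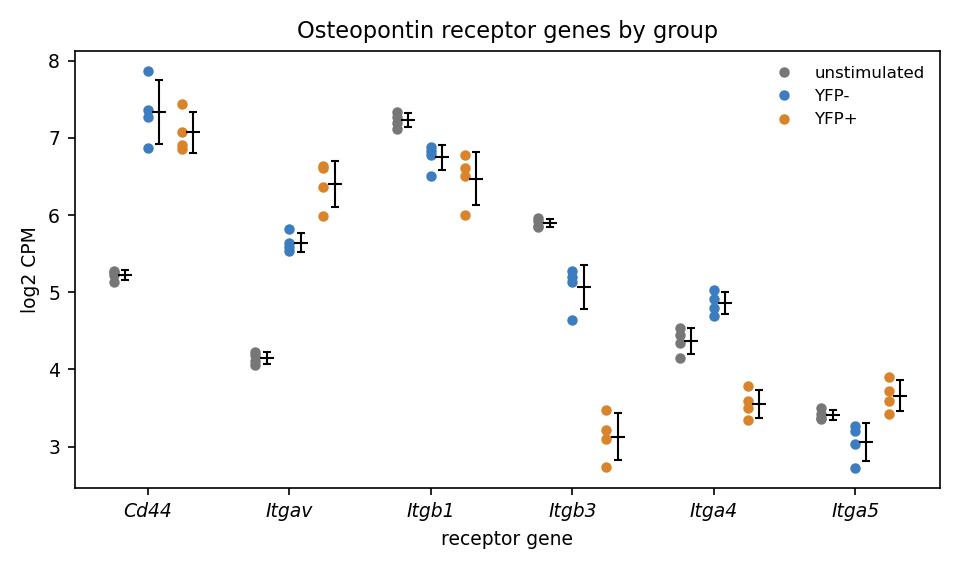
Log2 CPM of the 6 tested osteopontin receptor genes, 1 point per sample, grey for unstimulated, blue for YFP- and orange for YFP+, with black bars for the mean ± SD of the 4 samples. Itgav climbs through the 3 groups from a mean of 17.7 to 85.7 CPM, and Itgb3 descends from 59.6 to 8.88 CPM.

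Of 7 genes for enzymes that modify osteopontin, 2 were abundant enough to test. Fam20c, the kinase of secreted proteins, went from 0 to 5 reads per unstimulated library to 2.88 ± 0.728 CPM (SD, n = 4) in YFP- and 1.05 ± 0.384 CPM in YFP+ samples. No unstimulated sample was over the expression filter, so its higher level in stimulated samples is a description. Between YFP- and YFP+ the log2 difference was -1.48 (adjusted p = 0.11), with samples at 1.96 to 3.63 and 0.613 to 1.53 CPM. Fam20c was called lower in YFP+ with a pseudocount of 1 CPM (-0.92, adjusted p = 0.0013). It was also called in a limma fit of only the 8 samples compared (adjusted p = 0.012). Acp5, a phosphatase known to act on osteopontin, fell by 1.26 between unstimulated and YFP- samples (adjusted p = 0.0015), from 11.3 to 4.88 CPM. Of the genes for enzymes that cut osteopontin, those for thrombin (F2), Mmp3 and Mmp7 had at most 9 reads in any library. Mmp9 stood at 0.804, 0.389 and 0.0667 CPM in the 3 groups and was not tested, nor was the cross-linking enzyme gene Tgm2, at 1.11, 0.389 and 0.0957 CPM.

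The other genes of the SIBLING family had few reads. Ibsp, Dspp and Mepe, which serve bone and tooth matrix, had 0 reads in all 4 unstimulated libraries and at most 5 reads in any library. Dmp1 stood at 0.978, 0.752 and 0.937 CPM in the 3 groups, with no difference past the test (adjusted p = 0.36 to 0.83). Of 14 genes for matrix and matricellular proteins, Ecm1 alone was tested, with 1.71, 3.97 and 2.37 CPM. It rose by 1.24 between unstimulated and YFP- samples (adjusted p = 0.00036). Summed, the 14 genes gave at most 6.66 CPM in any library.

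Along the chromosome the genes beside Spp1 had low levels too. Mepe ends 96507 bp before the start of Spp1 and Ibsp lies farther out on that side. Pkd2, which encodes polycystin-2, begins 18400 bp after the end of Spp1 on the same strand and stood at 2.09 ± 0.401 CPM (SD, n = 4) before stimulation, 1.97 ± 0.435 in YFP- cells and 3.62 ± 0.720 in YFP+ cells. Pkd2 did not pass the test between unstimulated and YFP- samples (log2 -0.09, adjusted p = 0.78), the step at which Spp1 was 3.77-fold higher. It rose by 0.87 between YFP- and YFP+ samples (adjusted p = 0.017), a call lost without m2, m3 or m4 (adjusted p = 0.058, 0.1 and 0.12). BC005561, the next gene, was not analysed here.

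Of 14 genes for transcription factors reported to act on Spp1, 13 were tested. Between unstimulated and YFP- samples 5 rose and 1 fell, between YFP- and YFP+ samples 0 rose and 5 fell, and between unstimulated and YFP+ samples 5 rose and 5 fell. These counts stand beside 30.2% higher and 20.9% lower, 3.28% and 18.5%, and 27.5% and 33.3% of all genes tested. Fosb and Fosl1, which had no unstimulated sample over the expression filter, are among the rises against unstimulated samples. At the step from YFP- to YFP+ only 3.28% of all genes were called higher, so the count of 0 is near that share. At an unadjusted p of 0.05 in limma it was also 0 as deposited, 1 under quantile normalization, with trimmed-mean scaling or without f2, and 3 with median centring, where Runx2 was called.

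Tbx21, the gene for the T-box factor T-bet of NK cells and T helper cells, stood at 33.2, 80.9 and 85.7 CPM and rose between unstimulated and YFP- samples (log2 1.28, SE 0.18, adjusted p = 6.5e-05), with a difference of 0.06 (adjusted p = 0.85) after that. Runx2, the bone-forming Runx factor, stood at 22.9, 34.0 and 36.1 CPM and rose by 0.57 at the first step (adjusted p = 0.0024). Runx3, the Runx factor of cytotoxic lymphocytes, fell at both steps, from 129 to 67.4 and 31.9 CPM (log2 -0.95 and -1.07, adjusted p = 6.7e-05 and 0.00012). Ets1, an Ets factor needed for NK cell development, fell by 0.73 between YFP- and YFP+ samples (adjusted p = 0.0017). Runx1, Sp1 and Jund passed the test in no comparison. The promoter of Spp1 printed above holds 1 Runx match and 1 Ets match, and whether these factors bind it was not measured.

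The AP-1 genes, which encode partners of 1 dimeric factor family, were split. Fosl1 stood at 0.358, 4.09 and 5.47 CPM, and Fosb at 0.588, 2.33 and 1.91 CPM. Neither had an unstimulated sample over the expression filter, so their higher levels after stimulation are a description. Without them, 3 of the 11 other factor genes rose and 5 fell between unstimulated and YFP+ samples. At the first step 3 of the 11 rose and 1 fell. Junb rose there by 1.20 (adjusted p = 0.00018). Fos fell by 1.77 and Jun fell by 1.14 between YFP- and YFP+ samples (adjusted p = 0.0012 and 0.0043). Fosl2 also passed the test there (-0.55, adjusted p = 0.031), a call lost without f2, m2 or m3 (adjusted p = 0.15, 0.084 and 0.078). Vdr, the vitamin D receptor gene, stayed below 1 CPM in every group mean and was not tested.

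Macrophages are a well-known source of osteopontin. Levels of genes that mark them and other cell types follow, and any part of such cells in the Spp1 reads was not tested. Of 12 macrophage and monocyte markers, 7 (Adgre1, C1qa, C1qb, C1qc, Mrc1, Mertk and Fcgr1) had at most 4 reads in every library. The others reached 2162 reads (Cd68), 73 (Cd14), 32 (Lyz2), 17 (Ms4a7) and 12 (Csf1r) in a library. The summed level of the 12 was 53.5 to 60.4 CPM before stimulation, 27.5 to 44.7 in YFP- cells and 14.9 to 24.2 in YFP+ cells. Most of it came from Cd68, and the sum was lower in each successive group. Markers of dendritic cells summed to 83.6 to 102 CPM in unstimulated and 11.1 to 14.7 CPM in YFP+ samples, most of it from H2-Ab1. T cell markers summed to 45.9 to 106 CPM and 23.5 to 47.0 CPM, and B cell and neutrophil markers to at most 4.19 and 1.82 CPM in any library. Bone cell markers summed to 9.92 to 12.9 CPM in unstimulated and 4.56 to 9.79 CPM in YFP+ samples. Most of that came from the phosphatase gene Acp5, with means of 11.3 and 6.65 CPM.

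Genes with a pattern most like that of Spp1 were ranked by the Pearson r of log2 CPM over the 12 samples, among 8129 tested genes that had a named symbol and averaged log2 CPM 2 or more. These genes were chosen by that likeness, so their values are a description. Because the 3 groups differ widely, high r values were common: 244 genes (3.002%) exceeded 0.95. The nearest was Anxa8 (r = 0.994), a gene for a calcium-dependent membrane-binding annexin, at 0.720, 17.7 and 114 CPM in the 3 groups. Next came Creld2 (0.993), whose product resides in the endoplasmic reticulum, at 52.5, 135 and 271 CPM. Socs4 (0.990), of the family of suppressors of cytokine signalling, stood at 6.64, 11.3 and 15.3 CPM. Mllt11 (0.987) stood at 6.85, 25.4 and 63.4 CPM and Gtf2h2 (0.986), a subunit of a general transcription factor, at 15.9, 32.5 and 43.9 CPM.

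Within groups, deviations of Anxa8 from its group means followed those of Spp1 with r of 0.95 and those of Creld2 with 0.92, and these were 0.94 and 0.86 on totals without the rRNA-like features. For Socs4, Mllt11 and Gtf2h2 they were 0.87, 0.82 and 0.86, and 0.63, 0.70 and 0.69 without rRNA-like features. Among the secreted products, Gzmb was the most like Spp1 over the 12 samples (r = 0.979, number 21 of 8129) and Ifng came next (0.962). Within groups r was 0.77 for Gzmb and 0.27 for Ifng, and 0.36 and -0.42 without rRNA-like features. The likeness of Ifng thus lay in the group means, and YFP- and YFP+ samples were themselves separated by the Ifng reporter.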

How the data were processed

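RNA was measured in 12 samples of mouse NK cells, 4 per group. Per the labels' protocols, the SMARTer Ultra Low kit turned 10 ng of total RNA into cDNA, which was sonicated, amplified and read as paired ends of 150 bases on a NovaSeq. The submitters' processing notes name bcl2fastq, STAR 2.7.9a, Subread, featureCounts 2.0.3 and GRCm38, with no role or order; the normalization tool, strand setting and annotation release are not given in the sources used here. A kit that does not mark strand leaves reads of overlapping genes indistinguishable.

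The authors deposited log2 CPM values for all samples in 1 table, per the file headers, and a small prior was added before the log. Of 55774 lines, 287 repeated an identifier and were dropped. Whole reads and library totals were recovered from the step between low values: 100% of values were whole within 0.001 reads. The table had 0 sample columns of no listed sample. No count test was run, since the deposited unit is not counts. CPM, shares and ranks were computed from the recovered reads, and lengths and positions came from GENCODE M21 on GRCm38, which held 99.5% of identifiers.

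The 12364 genes over log2 CPM 0 in 4 or more samples were fitted with limma 3.58.1 in R 4.3.3, on all 12 samples with 1 coefficient per group and a trend on intensity. The call threshold was 0.05 on the p adjusted by Benjamini and Hochberg over all these genes. Spp1 took part in the fit and its test is not reported. Both the fit and the recovery of reads were tested on simulated data. For the fit, few genes were changed, in YFP+ only and with 1 fixed spread. That simulation therefore does not cover a setting in which many genes change. The genes named are Spp1, the 10 secreted products with the most YFP+ reads per kb, tested receptors, modifying enzymes, matrix and SIBLING genes, factors that were called, neighbours along the chromosome and in rank, and the 5 genes most like Spp1. Other genes are named where a count, a sum or a neighbour needs them, chosen after their values were seen. Among these are Ifng, Crtam, Hspa5, Srgn, Gzmd, Gzme, Il16, Osm, Ncr1, Klrk1, Klrd1, Eomes, Klrb1c and single cell type markers. Spp1 and all gene lists were chosen with earlier results of these data known. Python 3.11.15, pandas 2.3.3, numpy 2.4.6 and matplotlib 3.10.9 were used for the rest.

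Alternatives were the replicate label as a block, other filters (none, or log2 CPM over 2), 1 CPM as pseudocount, quantile normalization, median centring, trimmed-mean scaling, leaving out rRNA-like features, an adjusted p under 0.01, a fit of only the 8 samples compared, and leaving out each replicate label.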

Additional observations from a re-analysis of the deposited data

Results flagged for a closer look

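Unstimulated m4 stood apart from the other unstimulated samples in the rank of Spp1 among all features: 113, where the other 3 samples ranked it 58 to 65. The gap was 0.873 of the range of the 4 samples, past the limit that Dixon's test sets for 4 samples. It was the only set of 4 past that limit among 129 sets examined, where chance passes about 1 in 20. The same library had the lowest Spp1 of its group (881 CPM) and the highest rRNA-like share (35.3%). The part of that share in the rank was not tested. Without m4 the mean rank in unstimulated samples was 60.7.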

How the results depend on the processing

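The direction of all 3 Spp1 differences was the same under the pseudocount, the 4 other scalings and each left-out label. The block, the filters, the threshold and the fit of 8 samples leave the difference of means of a gene as it is and are not listed for Spp1. Leaving out each label in turn gave log2 differences of 1.81 to 2.04 (YFP- minus unstimulated), 1.01 to 1.19 (YFP+ minus YFP-) and 2.90 to 3.23 (YFP+ minus unstimulated). Quantile normalization gave 0.58 and 2.56 for the last 2 comparisons, and median centring 1.38 for YFP+ minus YFP-. Mean Spp1 percent of reads, with protein-coding reads as the total, was 0.218, 0.718 and 1.54 in the 3 groups, and with rRNA-like features left out 0.207 and 0.690 in unstimulated and YFP- samples. The mean of sample ranks among protein-coding genes was 8 in YFP- and 5 in YFP+ samples, and 6.25 per kb in YFP+ samples. Per kb, added after seeing the data, the mean share among secreted products was 3.62%, 5.51% and 5.98%.

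Genes called between YFP- and YFP+ numbered 2691, 1466 at an adjusted p under 0.01, and 1571 to 2178 with a label left out (lowest without m2, 1643 without m4). Secreted products called there numbered 10 at 0.01 and 10 to 14 with a label left out. Receptors called between unstimulated and YFP- samples numbered 3 to 5 with a label left out (3 without m2). Matrix genes called between unstimulated and YFP- samples numbered 3 with no filter and 0 with the higher filter. Between YFP- and YFP+ they numbered 0 with no filter, the higher filter, quantile normalization, median centring or a threshold of 0.01, and 0 to 1 with a label left out (0 without f2, m3 or m4). Between unstimulated and YFP+ they numbered 2 with no filter and 1 with quantile normalization, median centring or trimmed-mean scaling. Over all gene lists the cause of these changes was not tested.

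Values of single genes changed sign in 6 cases, none of them called: Gzma between YFP- and YFP+ was 0.24 with median centring, 0.13 with trimmed-mean scaling and -0.037 to 0.010 with a label left out (highest without f2). Ccl5 was 0.050 with median centring, Prf1 -0.089 to 0.31 with a label left out (lowest without f2), and Pkd2 between unstimulated and YFP- samples -0.29 to 0.16 (highest without m3). Of 1375 such values, 1290 kept their direction and side of the threshold, 55 lost a call and 24 gained one. Samples with the same label did not deviate together in every pair (r above 0.1 in 1, 3 and 2 of 4 labels), and not every sample correlated best with its own label. With the replicate label as a block, 6682, 3098 and 7774 genes were called in the 3 comparisons, against 6321, 2691 and 7522 without it. Depth limits genes near 3 reads and does not limit Spp1.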
